A study of Mus musculus with 15 samples.

Results

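AG221, an inhibitor of mutant IDH2, was added to ruxolitinib, an inhibitor of JAK1 and JAK2, and LSK cells from recipients given both drugs were compared with LSK cells from recipients given ruxolitinib alone. The question was what inhibition of mutant IDH2 adds once JAK is inhibited. The comparison used 6 of the 15 libraries of the series, the 3 combined libraries (B24, B25 and B26) and the 3 ruxolitinib libraries (A14, A16 and A17). It covered every gene that passed a filter on low counts, 17834 of 45232 genes in the count table.

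Both groups were C57BL/6 CD45.2+ LSK cells carrying IDH2 R140Q and JAK2 V617F, sorted from bone marrow as cells that lack lineage markers and bear Sca-1 and c-Kit. By the study's methods, donor marrow with both alleles, expressed in hematopoietic cells by way of the interferon-inducible Mx1-Cre, was transplanted with congenic CD45.1 marrow into lethally irradiated CD45.1 hosts, so each host also held competitor cells that the CD45.2 sort removed. Ruxolitinib was given at 60 mg/kg to both groups and AG221 at 40 mg/kg to the combined group only, by gavage, BID, over 21 to 28 days of treatment, and the mice were killed about 1.5 hours after the last dose. The study's methods name a further dose of AG221 without saying which mice received it. The other 9 libraries were mutant LSK cells from recipients given vehicle or AG221 and WT LSK cells, 3 each. They are used below for reference, and they also entered the filter on low counts and the estimate of spread behind the p-values of genes. Neither the labels nor the methods say whether a library came from a single mouse, so p-values measure the spread between these libraries.

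IDH2 is the mitochondrial isocitrate dehydrogenase, and its R140Q form converts 2-oxoglutarate to 2-hydroxyglutarate, which inhibits 2-oxoglutarate-dependent dioxygenases such as the TET enzymes and the Jumonji histone demethylases. JAK2 carries signals from the erythropoietin, thrombopoietin and related receptors to the STAT transcription factors, and the V617F form signals without ligand. LSK cells hold the stem cells and multipotent progenitors from which the myeloid cells of a myeloproliferative neoplasm arise.

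Total counts were 22004150 to 27743702 in the ruxolitinib libraries and 18836625 to 29580486 in the combined libraries, so that 3 counts corresponded to at most 0.157 CPM (counts per 1000000, on library totals scaled by TMM). Log2 CPM correlated at 0.973 to 0.977 between combined libraries, at 0.964 to 0.981 between ruxolitinib libraries and at 0.931 to 0.975 between libraries of different groups. Values of a group are given throughout in the order A14, A16 and A17 for ruxolitinib, B24, B25 and B26 for combined treatment, A1, A3 and A4 for vehicle, A8, A9 and A10 for AG221 and B28, B30 and B31 for WT. Kit, the stem cell factor receptor that defines the gate, was at 1120.1, 1402 and 1306 CPM in the ruxolitinib libraries and at 1025, 901 and 940.4 CPM in the combined libraries, lower without overlap. Ly6a, the gene of the gate antigen Sca-1, was at 47, 44.6 and 42.9 CPM with ruxolitinib and 53.1, 48.8 and 60.1 CPM with combined treatment, higher without overlap. Neither Kit nor Ly6a was called. Cd34, a progenitor antigen, was at 773, 691 and 889 CPM with ruxolitinib and 1017, 716 and 1102 CPM with combined treatment. Markers of lineages that the sort removes were at unequal levels. Cd3e, of the T cell receptor complex, was at no more than 1.24 CPM. Itgam, the myeloid integrin Mac-1, was at 85.3, 51.3 and 58.4 CPM with ruxolitinib and 36.5, 28.1 and 50.1 CPM with combined treatment, lower without overlap but not called (log2 fold change -0.77, SE 0.3, adjusted p = 0.12). Igkc, the constant region of the kappa light chain, was at 195, 17 and 7.16 CPM with ruxolitinib and 1.51, 144 and 172 CPM with combined treatment, high in A14, B25 and B26, and the part of such cells in the results below was not tested. Library A16 stood apart for the hemoglobin gene Hba-a1, which was at 196 CPM against 4.11 to 6.94 CPM in the combined libraries. In bulk samples, fewer cells of a type and less RNA per cell cannot be told apart.

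With AG221 added to ruxolitinib, 2217 genes changed, 12.4% of those tested (edgeR's quasi-likelihood test, Benjamini-Hochberg adjusted p under 0.05). The change was uneven in direction and size. There were 1515 higher genes (8.5% of those tested) with a median log2 fold change of 1.53, and 702 lower genes (3.94%) with a median of -0.85. Of the higher genes 1233 changed at least 2-fold, against 292 of the lower genes, whereas changes of at least 8-fold numbered 41 higher and 40 lower. The median over all genes tested was 0.01. The CPM ranges of the groups did not overlap for 6334 genes, or 35.5% of those tested, and lay higher with combined treatment for 3547 of them (19.9%). Leaving out B24, B25, A16 or A17 lowered the count of called genes to 1137, 1251, 1317 and 1440, while it was 1697 without A14 and 1899 without B26. With only the libraries compared in the fit, 15009 genes were tested and 1808 called. By the same test, adjusted p-values there were 0.00854 for Atf3, 0.0119 for Ptgs2 and 0.0151 for Btg2, larger than those given below. Of the 87 genes examined one by one, 84 kept their direction and their side of the threshold. In the fit of all 15 libraries, ruxolitinib alone changed 3 genes against vehicle, all lower (0.0168% of those tested), with 813 genes at an unadjusted p under 0.05.

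**Figure D1:**
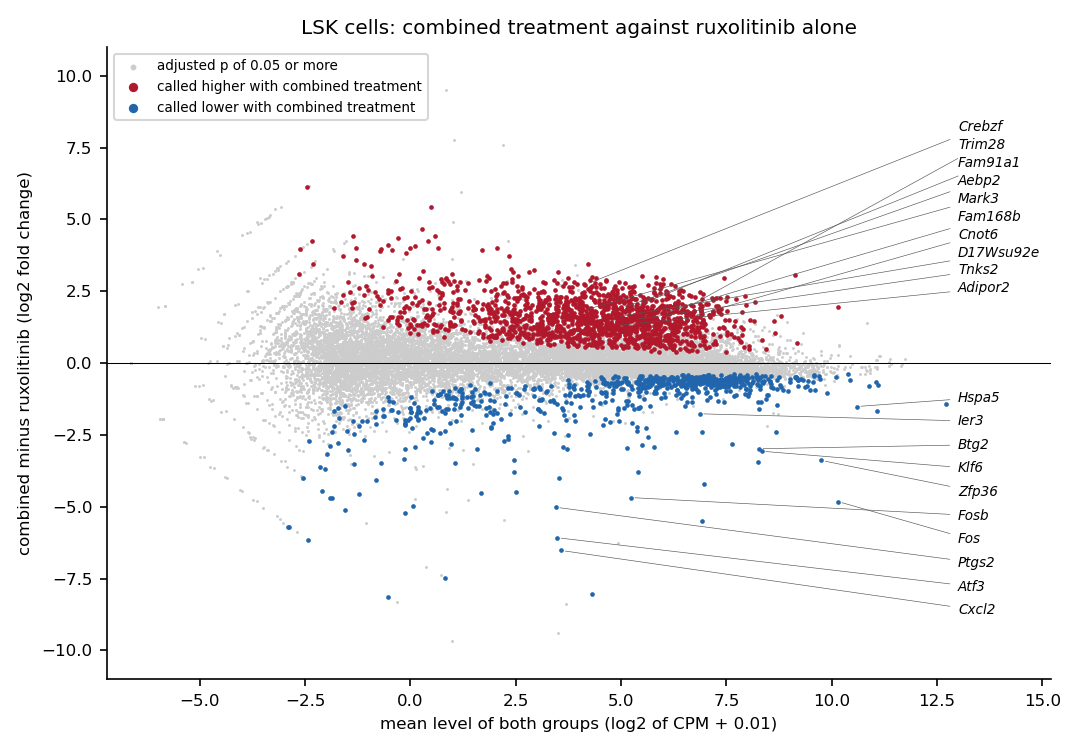
Each point is 1 of the 17834 genes tested, with the mean level of the combined and ruxolitinib groups on the horizontal axis (log2 of CPM + 0.01) and the log2 fold change of combined minus ruxolitinib on the vertical axis. The 1515 higher genes (red) form a dense band of moderate changes, whereas the 702 lower genes (blue) include both many small changes and the labelled genes far below 0, among them Fos at -4.82, Atf3 at -6.08 and Cxcl2 at -6.52.

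A limit bears on every value that follows. The names of all ruxolitinib, AG221 and vehicle libraries begin with A and those of all combined and WT libraries with B, the labels do not say what the letters mean, and adding AG221 to ruxolitinib cannot be told apart from the change of letter. The mean log2 CPM of the WT libraries was nearer to the combined than to the ruxolitinib mean for 79.8% of the higher genes, 87.5% of the lower genes and 68.7% of all genes tested. The mean of the vehicle libraries was nearer to the combined mean for 2.51%, 9.12% and 29.6% of these genes. As a reference the WT libraries also differ from every mutant library in the mean level of Y-linked and X-inactivation genes, given below.

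Immediate early genes, which growth factors, cytokines and stress switch on within minutes, had the largest share of changed members among the 39 gene lists examined. Of 40 members tested, 17 fell and none rose (42.5% called, against 12.4% of all genes), with a median log2 fold change of -1.67. The number of lower members stayed between 16 and 19 when any single library was left out. Lists and members were chosen with earlier results of these data known, so the rank of this list may follow in part from that choice. The products of Fos, Fosb and Atf3 are AP-1 and ATF family transcription factors. Zfp36 encodes a protein that binds AU-rich elements and speeds the decay of cytokine mRNAs, Btg2 an antiproliferative cofactor of mRNA deadenylation, and Klf6 a zinc finger transcription factor. In the GENCODE annotation of GRCm38, Klf6 (ENSMUSG00000000078) lies at chr13:5861482-5870394, Fos (ENSMUSG00000021250) at chr12:85473890-85477273 and Atf3 (ENSMUSG00000026628) at chr1:191170296-191218039, and the values count reads over their exons.

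Fos was at 2499.9, 1589 and 2494 CPM in the ruxolitinib libraries and at 129, 33.4 and 70.7 CPM in the combined libraries (log2 fold change -4.82, SE 0.49, adjusted p = 0.000231). Fosb stood at 105, 37 and 74.7 CPM with ruxolitinib and 3.55, 1.8 and 3.15 CPM with combined treatment (log2 fold change -4.68, SE 0.46, adjusted p = 0.000219), and Atf3 at 28.4, 14.8 and 22.6 CPM with ruxolitinib and 0.261, 0.207 and 0.509 CPM with combined treatment (log2 fold change -6.08, SE 0.41, adjusted p = 7.49e-06). For all 3 genes the lowest ruxolitinib library, A16, lay at least 10-fold above the highest combined library. The smallest adjusted p of the comparison belonged to Klf6, at 666, 518 and 547 CPM with ruxolitinib and 76.8, 61.9 and 67.5 CPM with combined treatment (log2 fold change -3.07, SE 0.19, adjusted p = 5.56e-06). Levels of Zfp36 went from 1849, 1247 and 1625 to 207, 96 and 148 CPM (log2 fold change -3.39, SE 0.33, adjusted p = 0.000219), and those of Btg2 from 591, 449.9 and 606 to 99.5, 48 and 61.1 CPM (log2 fold change -2.98, SE 0.3, adjusted p = 0.000233). Again every combined library was far below every ruxolitinib library. Smaller decreases were those of Ier3, an early gene that modulates apoptosis and NF-kB signaling, from 199, 158 and 183 to 60.2, 53.9 and 44.8 CPM (log2 fold change -1.77, SE 0.16, adjusted p = 0.000132), and of Sgk1, a serum- and glucocorticoid-induced kinase, from 33.3, 26.5 and 29.4 to 10.3, 11.2 and 9.16 CPM (log2 fold change -1.54, SE 0.18, adjusted p = 0.000509). The combined libraries sat at the level of the WT libraries, where Fos was at 126, 111 and 79.8 CPM, Klf6 at 78.5, 68.7 and 67.7 CPM and Atf3 at 0.363, 0.404 and 0.235 CPM. The vehicle libraries, with Fos at 2712, 4975 and 1819.7 CPM, and the AG221 libraries, at 1426, 1505 and 1731 CPM, were high like the ruxolitinib libraries.

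**Figure D2:**
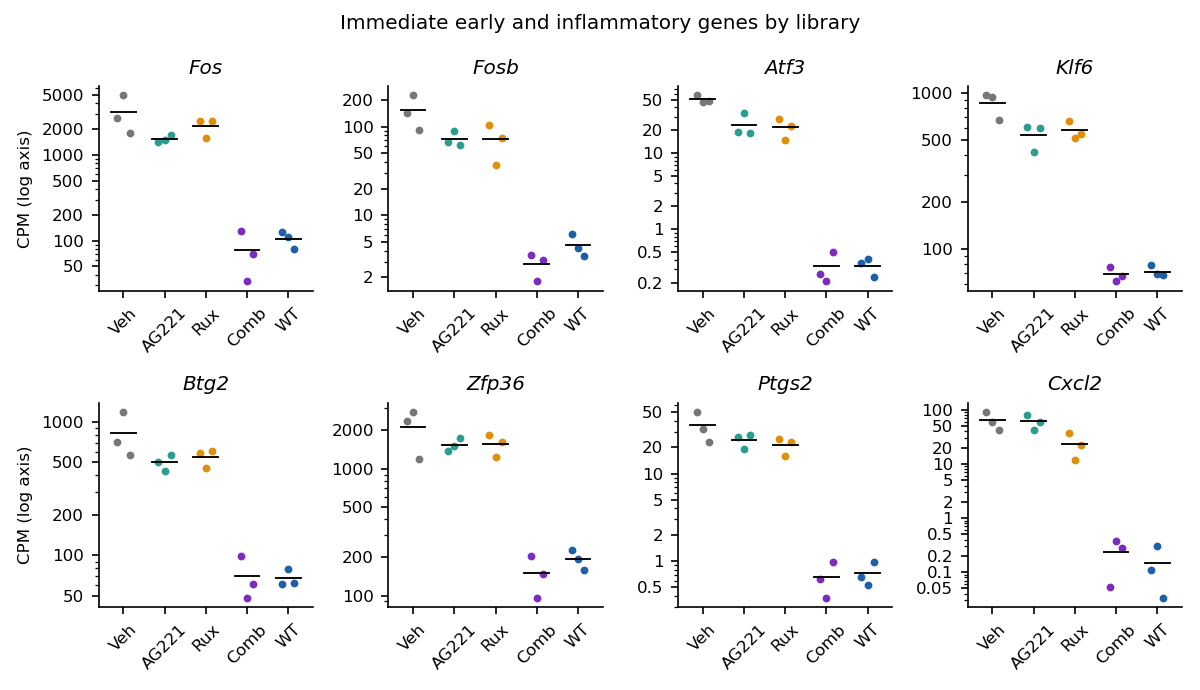
CPM on a log axis for 8 genes in each of the 15 libraries, by group (vehicle, AG221, ruxolitinib, combined, WT), with 1 point per library and a line at the group mean. In all 8 panels the 3 combined libraries lie with the 3 WT libraries and below the 9 vehicle, AG221 and ruxolitinib libraries, as for Klf6 at 61.9 to 76.8 against 418 to 970.0 CPM.

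Many immediate early promoters hold a cAMP response element (CRE), the site of CREB and ATF factors. The promoters of Fos, Atf3 and Btg2, chosen for display because they hold its core, and of Klf6, which does not, are shown. Each line gives the 250 bases before the annotated RefSeq start (GRCm38.p6), 5′ to 3′ on the gene's strand, in lower case with the CRE core TGACGT, or its reverse complement, in capitals, and the full CRE in the case of Btg2.
Fos: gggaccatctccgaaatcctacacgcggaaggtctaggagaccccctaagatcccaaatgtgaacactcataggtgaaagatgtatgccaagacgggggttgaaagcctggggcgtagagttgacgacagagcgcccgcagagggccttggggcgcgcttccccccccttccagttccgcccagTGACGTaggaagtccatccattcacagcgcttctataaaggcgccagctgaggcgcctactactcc
Atf3: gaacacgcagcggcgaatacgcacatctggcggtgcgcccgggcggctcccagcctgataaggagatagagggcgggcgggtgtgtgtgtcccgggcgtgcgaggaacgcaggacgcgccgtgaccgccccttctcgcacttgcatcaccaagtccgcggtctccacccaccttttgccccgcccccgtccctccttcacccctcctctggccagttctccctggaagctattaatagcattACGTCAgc
Btg2: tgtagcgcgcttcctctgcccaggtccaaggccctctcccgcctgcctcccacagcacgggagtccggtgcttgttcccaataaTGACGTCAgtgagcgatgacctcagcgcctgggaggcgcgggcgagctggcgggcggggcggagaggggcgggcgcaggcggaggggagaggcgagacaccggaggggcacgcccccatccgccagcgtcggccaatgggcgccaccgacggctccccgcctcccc
Klf6: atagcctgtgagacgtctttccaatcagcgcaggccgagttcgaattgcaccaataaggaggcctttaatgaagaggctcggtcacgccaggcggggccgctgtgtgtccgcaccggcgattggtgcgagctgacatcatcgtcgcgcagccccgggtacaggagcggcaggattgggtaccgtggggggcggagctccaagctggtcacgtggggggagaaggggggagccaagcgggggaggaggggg
They lie at chr12:85473640-85473889 on the plus strand, chr1:191183334-191183583 on the minus strand, chr1:134079156-134079405 on the minus strand and chr13:5861239-5861488 on the plus strand. The CRE core was not in the same window of Klf6, which had the smallest p, nor in those of Zfp36, Ier3 and Nr4a1, another early gene, whose promoters were also read and are not printed. Among 15 called members of the immediate early list with a promoter in the table, 7 (46.7%) held the CRE core, against 11 of 35 (31.4%) of all tested members. The share was 15.7% in the lower genes, 12.3% in the higher genes and 10.8% in the 11808 tested genes with a promoter. The full CRE, TGACGTCA, overlaps the core and was held by 2.84% of tested genes, while the AP-1 motif TGANTCA was in 5.79% of them and in 0 of the 15. Both strands were searched, and a match is a description of the letters only.

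Inflammatory mediators fell with the early genes. Of 29 tested genes of the NF-kB pathway and inflammatory cytokines, 10 fell and 2 rose (41.4% called, against 12.4% of all genes, median log2 fold change -0.44). Cxcl2, a neutrophil-attracting chemokine, was at 36.6, 11.7 and 22.5 CPM with ruxolitinib and at 0.0522, 0.38 and 0.278 CPM with combined treatment (log2 fold change -6.52, SE 0.65, adjusted p = 0.000227). The B24 value for Cxcl2 rests on fewer than 3 counts. Tnf went from 25, 19.3 and 26 to 3.76, 1.31 and 3.75 CPM (log2 fold change -3.01, SE 0.36, adjusted p = 0.00058) and Ccl4, the chemokine MIP-1 beta, from 101, 69 and 123 to 19.3, 5.84 and 13.3 CPM (log2 fold change -2.94, SE 0.38, adjusted p = 0.000801). Ptgs2, which encodes the inducible cyclooxygenase of prostaglandin synthesis, was at 24.6, 15.8 and 23.2 CPM with ruxolitinib and 0.626, 0.38 and 0.971 CPM with combined treatment (log2 fold change -5.02, SE 0.41, adjusted p = 5.49e-05). None of these ranges overlapped. In the opposite direction, Tnfaip2, a TNF-induced gene, was higher with combined treatment at 64.4, 127 and 35.7 CPM against 17.8, 13.6 and 14.8 CPM (log2 fold change 2.3, SE 0.47, adjusted p = 0.00627), with B26 the lowest of the combined libraries and a log2 fold change of 1.70 without B25. The median of the list moved to -0.11 without library A14, and the number of lower genes to between 8 and 10 when any single library was left out.

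Genes that hold cells in their niche or guide their homing included 4 lower and 2 higher genes of 24 (25% called, against 12.4% of all genes). Cd69, an early activation antigen that retains cells in tissue by removing the sphingosine-1-phosphate receptor from the surface, fell from 256, 156 and 194 to 42.2, 30.5 and 42.9 CPM (log2 fold change -2.39, SE 0.26, adjusted p = 0.000426). Rgs1, a brake on chemokine receptor signaling, fell from 618, 644 and 808 to 169, 113 and 108 CPM (log2 fold change -2.41, SE 0.3, adjusted p = 0.000692). Vcam1, an adhesion molecule bound by the integrin VLA-4, was at 95.4, 52.7 and 40.4 CPM with ruxolitinib and 5.43, 11.5 and 7.31 CPM with combined treatment (log2 fold change -2.95, SE 0.63, adjusted p = 0.0077), the lowest level of the mutant and WT groups. The laminin receptor subunit Itga6 rose from 38.7, 25.8 and 32 to 86.1, 119.9 and 79.5 CPM (log2 fold change 1.57, SE 0.19, adjusted p = 0.00058), above the 48.8, 53.3 and 42.3 CPM of the WT libraries.

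By edgeR's test, JAK/STAT targets were called about as often as genes in general. Of 30 tested members 1 rose and 2 fell (10% called, against 12.4% of all genes), with a median of -0.10. DESeq2 called 5 of the 30, a larger share than its 2975 of 37904 genes, fitted without a filter on low counts. Oncostatin M (Osm), an IL-6 family cytokine and a STAT5 target, stood at 113, 56.4 and 84.8 CPM with ruxolitinib and at 12.7, 16.7 and 13.2 CPM with combined treatment (log2 fold change -2.58, SE 0.28, adjusted p = 0.000426). Cdkn1a, which encodes the CDK inhibitor p21, stood at 77.4, 40.7 and 74.6 CPM with ruxolitinib and 25.5, 14 and 26.2 CPM with combined treatment (log2 fold change -1.55, SE 0.28, adjusted p = 0.00309). Both were lower in each combined library than in any ruxolitinib library. Socs1, the feedback inhibitor of JAK kinases, was near the detection limit with ruxolitinib at 0.754, 0.0855 and 0.41 CPM and reached 4.17, 4.56 and 1.85 CPM with combined treatment (log2 fold change 3.08, SE 0.79, adjusted p = 0.0206), and its call was lost when B24, B25, A16 or A17 was left out, while its log2 fold change was 3.78 without A14.

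Among 20 JAK kinases and hematopoietic cytokine receptors only Jak2, one of the targets of ruxolitinib, changed (5% called, against 12.4% of all genes). Jak2 (ENSMUSG00000024789, chr19:29251828-29313080) was at 22.6, 21.1 and 20.8 CPM in the ruxolitinib libraries and at 47.3, 52.9 and 40.7 CPM in the combined libraries (log2 fold change 1.13, SE 0.16, adjusted p = 0.00135), with 32.3, 38.4 and 27.1 CPM in WT and 21.8, 20.1 and 24.1 CPM in vehicle libraries. The counts do not separate the V617F and normal alleles. Jak1 was at 368, 161 and 357 CPM with ruxolitinib and 514, 482 and 418 CPM with combined treatment (log2 fold change 0.67, SE 0.34, adjusted p = 0.233), with A16 lowest and no overlap between groups.

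Interferon-driven genes gave almost no calls. Of 32 tested type I interferon response genes 0 were called in either direction by edgeR, against 12.4% of all genes. At an unadjusted p under 0.05 there were 4, against 25.4% of all genes, and DESeq2 called 1, against 2975 of 37904 genes. The median log2 fold change of the list was -0.02. Ifi27, an interferon-induced gene, was at 64.1, 80.2 and 76.6 CPM with ruxolitinib and 83.8, 80 and 97.6 CPM with combined treatment, and the vehicle libraries were higher at 149, 121 and 108 CPM. Of 29 interferon-gamma response genes only Socs1 was called (3.45%, against 12.4% of all genes). Of 22 genes of MHC class I and II presentation 9.09% were called, those of the chaperones calreticulin and calnexin (Calr and Canx), both lower.

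The gene of the target of AG221 did not pass the test. Idh2 (ENSMUSG00000030541, chr7:80094846-80115392) was at 480.2, 124 and 425 CPM with ruxolitinib and 499, 465 and 568 CPM with combined treatment (log2 fold change 0.57, SE 0.6, adjusted p = 0.607), with A16 far below the other 5 libraries. Of 29 enzymes of isocitrate, 2-hydroxyglutarate and the TCA cycle, 3 fell and none rose (10.3% called, against 12.4% of all genes, median -0.28). Adhfe1, a mitochondrial transhydrogenase that can form D-2-hydroxyglutarate, was at 0.706, 1.11 and 0.56 CPM with ruxolitinib and 0.157, 0.0346 and 0.185 CPM with combined treatment (log2 fold change -2.68, SE 0.59, adjusted p = 0.00905), the combined values resting on 3, 1 and 4 counts. Acly, which splits cytosolic citrate, went from 559.7, 774 and 573 to 385, 445 and 370.1 CPM (log2 fold change -0.67, SE 0.18, adjusted p = 0.0283), and Ogdh, the 2-oxoglutarate dehydrogenase subunit, from 653, 792 and 654 to 419.8, 519.7 and 460.3 CPM (log2 fold change -0.58, SE 0.16, adjusted p = 0.0315). The groups were apart for all 3 genes, but the call of Acly was lost without A16 or any 1 combined library, and that of Ogdh without any 1 of the 6 libraries.

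Glutamine, by way of glutamate, is a main source of 2-oxoglutarate. Of 30 genes of glutamine and glutamate metabolism 6 rose and none fell (20% called, against 12.4% of all genes), although the list median was -0.17. Glud1, glutamate dehydrogenase, went from 38.5, 18.3 and 35 to 164, 141 and 91.1 CPM (log2 fold change 2.11, SE 0.33, adjusted p = 0.00193) and Gclm, a subunit of the enzyme that starts glutathione synthesis, from 23.8, 18.2 and 18.3 to 126, 161 and 55 CPM (log2 fold change 2.5, SE 0.39, adjusted p = 0.00199). The groups were apart for both genes, and B26 was the lowest combined library for both. Without A16, 4 of the 6 were called.

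The dioxygenases that 2-hydroxyglutarate can inhibit showed 4 higher and 3 lower genes of 48 (14.6% called, against 12.4% of all genes, median -0.10). The share depended on the test. DESeq2 called 16 of the 48, against 2975 of the 37904 genes in its fit, which had no filter on low counts. At an unadjusted p under 0.05 in edgeR's test there were 20 of the 48, a level that 25.4% of all genes met. Kdm5c, an X-linked histone H3 lysine 4 demethylase, fell from 172, 191 and 161 to 78.6, 79 and 95.6 CPM (log2 fold change -1.05, SE 0.14, adjusted p = 0.00105), while its relative Kdm5b rose from 76.3, 35.5 and 65.3 to 169.7, 148 and 110.2 CPM (log2 fold change 1.27, SE 0.29, adjusted p = 0.011). Alkbh5, which removes N6-methyladenosine from RNA, rose from 14.9, 6.62 and 12.2 to 38.6, 47.8 and 23.4 CPM (log2 fold change 1.7, SE 0.36, adjusted p = 0.00723). Riox1, a ribosomal oxygenase, was at 3.2, 1.88 and 3.39 CPM with ruxolitinib and 21.3, 26.7 and 10.5 CPM with combined treatment (log2 fold change 2.78, SE 0.47, adjusted p = 0.00259). Of its exonic length 31.9% overlaps a gene on the other strand, and the strand setting of the counting is not given in the sources used here. The call of Kdm5b was lost without B24.

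Regulators of DNA methylation and chromatin rose more often than they fell, as did all genes tested (8.5% higher and 3.94% lower). Of 41 tested members 12 rose and 4 fell (39% called, against 12.4% of all genes, median 0.36). Trim28, the corepressor KAP1 that silences retroelements, went from 48.9, 30.7 and 40.8 to 169, 182 and 133 CPM (log2 fold change 2.01, SE 0.23, adjusted p = 0.000478). The gene of the Polycomb subunit Suz12 was at 39.5, 35.3 and 36.8 CPM with ruxolitinib and 74, 81.8 and 68 CPM with combined treatment (log2 fold change 1, SE 0.16, adjusted p = 0.00197). For all of these genes no combined library reached down to a ruxolitinib library. Bmi1, of the other Polycomb complex, went from 16.7, 11.3 and 15.7 to 57.7, 49.8 and 30 CPM (log2 fold change 1.65, SE 0.26, adjusted p = 0.00203), with B26 lowest among the combined libraries. Asxl1, a cofactor of the BAP1 deubiquitinase mutated in myeloid neoplasms, went from 35.7, 34.4 and 33.7 to 51.4, 52.2 and 62.2 CPM (log2 fold change 0.68, SE 0.13, adjusted p = 0.00403), with all 6 values close to their group means. Leaving out any single library gave 8 to 11 higher and 0 to 4 lower members. Aebp2, a Polycomb cofactor outside the list, was among the genes with the smallest p in the whole comparison, at 15.4, 11.9 and 13.2 CPM with ruxolitinib and 54, 59.5 and 37.4 CPM with combined treatment (log2 fold change 1.9, SE 0.21, adjusted p = 0.000427).

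The other genes that rose with the smallest p covered varied functions. Crebzf, a bZIP coregulator, was at 5.56, 3.85 and 4.51 CPM with ruxolitinib and 35.5, 30.3 and 26.4 CPM with combined treatment (log2 fold change 2.73, SE 0.26, adjusted p = 0.000204). Cnot6, a deadenylase of the CCR4-NOT complex, rose from 56.3, 41.8 and 53.5 to 177, 174 and 120.1 CPM (log2 fold change 1.64, SE 0.18, adjusted p = 0.000427), and Mark3, a microtubule affinity-regulating kinase, from 7.54, 6.88 and 7.61 to 28.8, 27.8 and 20.7 CPM (log2 fold change 1.81, SE 0.2, adjusted p = 0.000427). Every combined library exceeded every ruxolitinib library for these genes, for Aebp2, and for Fam168b and D17Wsu92e, whose log2 fold changes were 1.74 and 1.6 (SE 0.21 and 0.19, adjusted p = 0.00058 for both). Crebzf was at 4.85, 6.83 and 8.56 CPM in the vehicle libraries, near the ruxolitinib level, and at 19.5, 23.5 and 19.1 CPM in the WT libraries, between ruxolitinib and combined treatment.

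Neutrophil granule genes were lower after combined treatment than with ruxolitinib alone. Of 23 tested genes 8 fell and none rose (34.8% called, against 12.4% of all genes), with a median log2 fold change of -1.67. Mpo, myeloperoxidase, was at 12141, 8096 and 9117 CPM with ruxolitinib and 2629, 3375 and 4997 CPM with combined treatment (log2 fold change -1.42, SE 0.22, adjusted p = 0.00204), and Elane, neutrophil elastase, at 4198, 2523 and 3175 CPM with ruxolitinib and 907, 1069 and 1142 CPM with combined treatment (log2 fold change -1.67, SE 0.32, adjusted p = 0.00495). Hp, haptoglobin, was at 199.7, 114 and 131 CPM with ruxolitinib and 42.3, 54.8 and 74.7 CPM with combined treatment (log2 fold change -1.37, SE 0.25, adjusted p = 0.00381), and Cebpe, the transcription factor of granulocyte maturation, at 33.9, 16.2 and 21.6 CPM with ruxolitinib and 4.49, 7.02 and 6.06 CPM with combined treatment (log2 fold change -2.02, SE 0.45, adjusted p = 0.00942). In each case A14 was the highest ruxolitinib library and the ranges were separate. The vehicle libraries held Elane at 1214, 3140 and 1125 CPM, a range that overlapped the combined one. Against vehicle, the list median was 0.82 with ruxolitinib, where no gene was called higher, and 1.26 with AG221, where 2 members were. The call of Cebpe was lost without B24, and the list median ranged from -1.86 without A16 to -0.72 without A14, with 5 to 9 lower genes. Of Mpo's exonic length 15% overlaps a gene on the other strand. Markers of more mature neutrophils varied more within the groups, with Ngp at 187, 22.6 and 37.4 CPM in the ruxolitinib and 0.939, 18.7 and 55.3 CPM in the combined libraries and Camp at 47.8, 5.13 and 11.4 CPM with ruxolitinib and 0.417, 5.53 and 11.1 CPM with combined treatment.

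Of 27 monocyte and dendritic cell genes 5 fell and 1 rose (22.2% called, against 12.4% of all genes, median -0.41). Cd14, the lipopolysaccharide coreceptor, was at 13.4, 5.13 and 7.13 CPM with ruxolitinib and 0.678, 1.62 and 2.08 CPM with combined treatment (log2 fold change -2.53, SE 0.43, adjusted p = 0.00268), Mgl2, a lectin of dendritic cells and macrophages, at 23.1, 21.4 and 13.6 CPM with ruxolitinib and 3.76, 7.81 and 5.09 CPM with combined treatment (log2 fold change -1.8, SE 0.36, adjusted p = 0.00551), and Fcgr3, an Fc receptor of myeloid cells, at 105, 68.6 and 87 CPM with ruxolitinib and 29.7, 35.6 and 46.9 CPM with combined treatment (log2 fold change -1.22, SE 0.24, adjusted p = 0.00579). Every combined library was below every ruxolitinib library for these 3 genes. In the mast cell and basophil list 3 of 19 fell (15.8% called, against 12.4% of all genes). Among them were Ms4a3, also a granulocyte-monocyte progenitor gene, from 549, 385 and 450.3 to 123, 191 and 222 CPM (log2 fold change -1.37, SE 0.26, adjusted p = 0.00438), and Hdc, histidine decarboxylase, from 148, 132 and 127 to 39.3, 55.1 and 65.1 CPM (log2 fold change -1.35, SE 0.27, adjusted p = 0.00536). The mast cell protease Cpa3, a defining marker, overlapped between the groups at 124, 184 and 145 CPM in the ruxolitinib and 147, 181 and 201 CPM in the combined libraries.

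The count of erythroid genes rested on library A16. Of 27 tested members 6 fell and 3 rose (33.3% called, against 12.4% of all genes, median -0.85), but the median became 0.12, with 2 lower and 2 higher genes, without A16. Hbb-bs, a beta globin, was at 55.4, 609 and 53.2 CPM with ruxolitinib, the second value being A16, and at 17.4, 10 and 11.7 CPM with combined treatment (log2 fold change -4.2, SE 0.86, adjusted p = 0.00635), and Hba-a1, an alpha globin, at 21.2, 196 and 18.2 CPM with ruxolitinib and 6, 4.11 and 6.94 CPM with combined treatment (log2 fold change -3.79, SE 0.83, adjusted p = 0.0089). Without A16 the log2 fold changes became -2.10 for Hbb-bs and -1.83 for Hba-a1 (adjusted p = 0.0166 and 0.0348). Neither was called by DESeq2, and A14 and A17 lay above the 3 combined libraries. Near-identical globin copies share reads, and how the counting split them is uncertain.

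Stem cell genes were called as often as genes in general. Of 40 tested members 5 rose and none fell (12.5% called, against 12.4% of all genes, most of them higher), with 24 log2 fold changes above 0 and 16 below (median 0.14). Lmo2, a bridging factor of the stem cell transcription complex, was at 277, 114 and 262 CPM with ruxolitinib and 792, 713 and 525 CPM with combined treatment (log2 fold change 1.64, SE 0.37, adjusted p = 0.01). Gfi1, a repressor that restrains stem cell proliferation and steers granulocyte fate, was at 4.52, 2.01 and 3.73 CPM with ruxolitinib and 17.2, 11.6 and 9.57 CPM with combined treatment (log2 fold change 1.9, SE 0.38, adjusted p = 0.00579), Tal1, the partner of Lmo2, at 17.6, 13.5 and 19.1 CPM with ruxolitinib and 34.3, 43 and 24.5 CPM with combined treatment (log2 fold change 1.02, SE 0.24, adjusted p = 0.0127), and Rbpms, an RNA-binding protein, at 11.6, 8.59 and 15.1 CPM with ruxolitinib and 89.5, 72.2 and 26.9 CPM with combined treatment (log2 fold change 2.41, SE 0.43, adjusted p = 0.00311). The combined libraries were all above the ruxolitinib libraries for these 4 genes, with A16 the lowest library in each, and the call of Tal1 was lost without B25 or A16. Hlf, a transcription factor of the most primitive cells, was at 47.8, 52.6 and 74.7 CPM with ruxolitinib and 172, 123 and 96.7 CPM with combined treatment, and Mecom, another, at 66.1, 74.1 and 85.1 CPM and 83.3, 64.1 and 49.8 CPM. The groups were apart for Hlf and overlapped for Mecom, and neither was called.

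In the megakaryocyte and platelet list 4 of 22 rose and none fell (18.2% called, against 12.4% of all genes, median 0.14). Gp5, a platelet glycoprotein, was at 4.19, 1.28 and 3.81 CPM with ruxolitinib and 38.9, 54.9 and 7.31 CPM with combined treatment (log2 fold change 3.45, SE 0.65, adjusted p = 0.00403), and Rap1b, a small GTPase of platelet integrin activation, at 107, 48.2 and 89 CPM with ruxolitinib and 487, 568 and 173 CPM with combined treatment (log2 fold change 2.33, SE 0.44, adjusted p = 0.00421). Gp1bb was at 0.612, 0.0855 and 0.485 CPM with ruxolitinib and 8.19, 9.3 and 0.694 CPM with combined treatment (log2 fold change 3.93, SE 0.85, adjusted p = 0.00854), but 92.9% of its exonic length is shared with another gene on the same strand. For these genes B24 and B25 were high and B26 was close to the ruxolitinib libraries. The lineage-defining genes Pf4, at 118, 144 and 92.6 CPM with ruxolitinib and 143, 215 and 82.5 CPM with combined treatment, and Itga2b, at 441, 463 and 455 CPM with ruxolitinib and 449.6, 587 and 336 CPM with combined treatment, overlapped between groups.

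**Figure D3:**
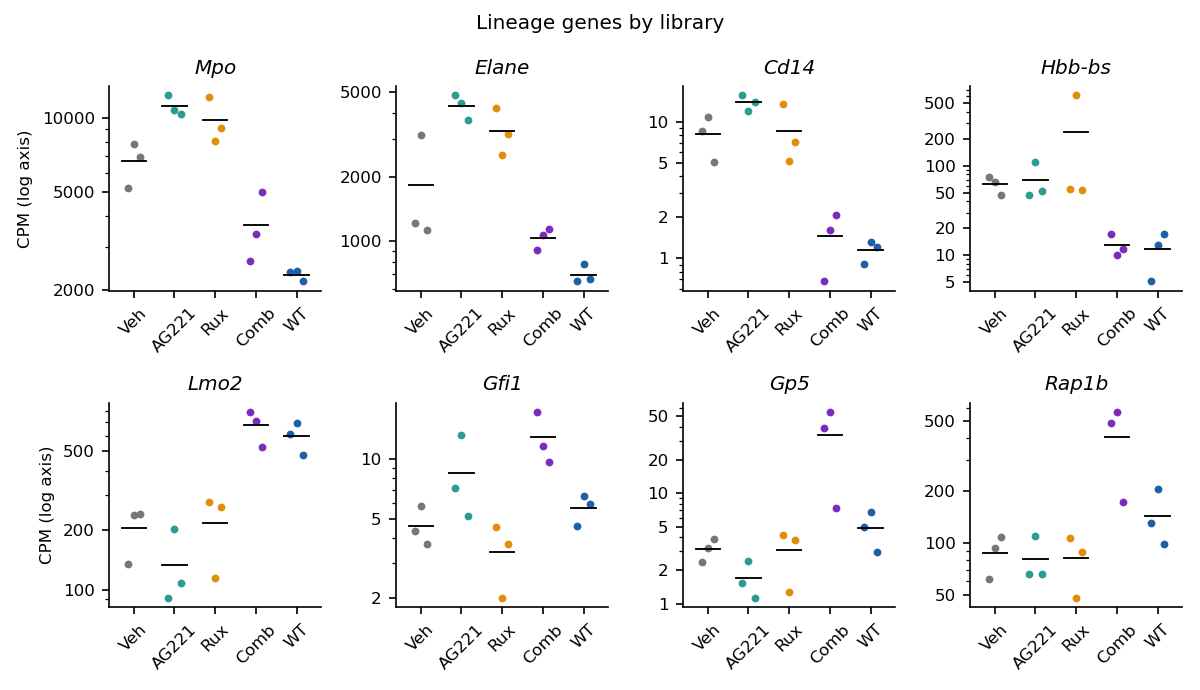
CPM on a log axis for 8 lineage genes in each of the 15 libraries, by group, with 1 point per library and a line at the group mean. Mpo, Elane and Cd14 lie lower in the combined than in the ruxolitinib libraries, 1 ruxolitinib library carries the high Hbb-bs value of 609 CPM, and Lmo2, Gfi1, Gp5 and Rap1b lie higher in the combined libraries, with 1 of the 3 combined values for Gp5, 7.31 CPM, near the other groups.

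Among 24 myeloid fate transcription factors 3 rose and 1 fell (16.7% called, against 12.4% of all genes, median 0.56). Cebpg, a C/EBP family member without an activation domain, rose from 27.5, 12.6 and 25.6 to 89.1, 91.9 and 51 CPM (log2 fold change 1.82, SE 0.35, adjusted p = 0.00484). Lymphoid priming and B cell genes had 2 higher members of 30 and no lower member (6.67% called, less than the 12.4% of all genes). They were the helix-loop-helix factor Tcf12, at 66, 44.1 and 63.6 CPM with ruxolitinib and 102, 109.8 and 93.6 CPM with combined treatment (log2 fold change 0.81, SE 0.18, adjusted p = 0.0101), and the chromatin organizer Satb1, at 30.3, 10.9 and 31.8 CPM with ruxolitinib and 133, 26.6 and 84.9 CPM with combined treatment (log2 fold change 1.74, SE 0.53, adjusted p = 0.0446). The groups overlapped for Satb1, whose call was lost when B24, B26, A14, A16 or A17 was left out, and Tcf12 was not called without A16. In the plasma cell list 1 of 17 rose (5.88% called), and in the T and NK cell list 1 of 20 fell (5% called).

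Stress and secretory pathway genes fell more often than they rose. Of 31 genes of the ATF4, mTORC1 and unfolded protein response 9 fell and 3 rose (38.7% called, against 12.4% of all genes, median -0.23). Hspa5, the endoplasmic reticulum chaperone BiP, went from 2413, 2379.8 and 2067 to 665, 785 and 952 CPM (log2 fold change -1.51, SE 0.15, adjusted p = 0.000231), its cofactor Hyou1 from 349, 236 and 275 to 113, 131 and 157 CPM (log2 fold change -1.1, SE 0.21, adjusted p = 0.00463), and Atf4, the translation-controlled factor of the integrated stress response, from 208, 213 and 216 to 116, 127 and 139 CPM (log2 fold change -0.74, SE 0.16, adjusted p = 0.00942). The groups were apart for all 3 genes, and the call of Atf4 was lost without B24. Leaving out any single library left 4 to 9 lower genes of the list. In the heat shock list 1 of 19 was called (5.26%), Hspa1a, at 3.39, 0.684 and 1.23 CPM with ruxolitinib and 0, 0.0346 and 0.0925 CPM with combined treatment (adjusted p = 0.00628). No combined library held 3 counts of it, so no fold is given. A near-identical copy, Hspa1b, shares its reads.

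Of 34 D cyclins, CDK inhibitors and p53 targets 7 fell and 2 rose (26.5% called, against 12.4% of all genes, median 0.07). Plk2, a polo-like kinase induced by p53 and serum, was at 9.51, 8.2 and 14.9 CPM with ruxolitinib and 0.731, 0.415 and 0.324 CPM with combined treatment (log2 fold change -4.48, SE 0.52, adjusted p = 0.00051), below the 9.07, 10.1 and 8.28 CPM of the WT libraries. Pmaip1, the BH3-only protein Noxa, went from 132, 52.9 and 53.4 to 5.64, 13 and 14.2 CPM (log2 fold change -2.86, SE 0.39, adjusted p = 0.00111). In the Bcl2 family list 2 of 17 genes rose while Pmaip1 alone fell (17.6% called). Glucocorticoid-induced genes had 4 lower and 2 higher members of 17 (35.3% called), among them Fkbp5, a cochaperone of the glucocorticoid receptor, which rose from 18.5, 13.9 and 16.6 to 75.6, 62.5 and 41.5 CPM (log2 fold change 1.88, SE 0.23, adjusted p = 0.000692), and Per1, a clock gene, which fell. Called members of this list also count in others, Sgk1 and Per1 in the immediate early list, Cdkn1a among JAK/STAT and p53 targets and Nfkbia in the NF-kB list. The nuclear RNA Neat1, the scaffold of paraspeckles, was the only called member of 11 long noncoding RNAs (9.09% called), at 254, 190.4 and 232 CPM with ruxolitinib and 95.4, 84.1 and 88.2 CPM with combined treatment (log2 fold change -1.34, SE 0.17, adjusted p = 0.000692).

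Growth and biosynthesis genes went both ways. Of 56 Myc and ribosome biogenesis genes 6 rose and 6 fell (21.4% called, against 12.4% of all genes, median -0.29). Odc1, the rate-limiting enzyme of polyamine synthesis, was at 22.4, 11.5 and 18.1 CPM with ruxolitinib and 103, 135 and 41.3 CPM with combined treatment (log2 fold change 2.43, SE 0.45, adjusted p = 0.0039), and Noc2l, a nucleolar histone acetyltransferase inhibitor, at 52.3, 18.7 and 46 CPM with ruxolitinib and 247, 270.2 and 105 CPM with combined treatment (log2 fold change 2.41, SE 0.47, adjusted p = 0.00513), with B26 the lowest combined library for both. In the replication and mitosis list 4 of 50 rose and 3 fell (14% called, close to the share of all genes, median -0.24), with E2f1 at 9.09, 8.5 and 8.32 CPM with ruxolitinib and 25.4, 31.9 and 13.9 CPM with combined treatment (log2 fold change 1.46, SE 0.26, adjusted p = 0.0031). Among SR splicing factors and Clk kinases 6 of 30 rose and 1 fell (23.3% called), with Srsf9 at 12.9, 6.67 and 8.62 CPM with ruxolitinib and 65.1, 68.4 and 18.4 CPM with combined treatment (log2 fold change 2.43, SE 0.45, adjusted p = 0.00402). Glycolysis and hypoxia genes had 4 lower and 1 higher member of 31 (16.1% called). Cholesterol and fatty acid synthesis genes had 3 lower and 1 higher of 29 (13.8%), and NRF2 antioxidant and iron genes 2 in each direction of 23 (17.4%).

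Genes of housekeeping complexes gave no calls in combined minus ruxolitinib, against 12.4% of all genes. In edgeR's test 0 of 70 nuclear oxidative phosphorylation genes, 0 of 76 cytoplasmic ribosomal protein genes, 0 of 32 proteasome genes and 0 of 12 mitochondrially encoded genes were called, with medians of -0.12, -0.05, -0.20 and 0.14. At an unadjusted p under 0.05 there were 2, 2, 3 and 0 of them, against 25.4% of all genes. DESeq2 called 1, 0, 0 and 0, against 2975 of 37904 genes. The difference between adding AG221 with and without ruxolitinib, described below, was called lower for 16, 8, 6 and 1 of them (2.82% of all genes). Calls of that test depended on single libraries. Of 5 Y-linked and X-inactivation genes edgeR called 0, with 1 at an unadjusted p under 0.05 and 1 called by DESeq2. The WT libraries differed from all mutant libraries in this list. Its mean log2 CPM lay above the WT mean by 5.4 (B24) to 7.13 (A16) in the mutant libraries. The list joins Xist with the Y-linked genes Uty, Ddx3y, Kdm5d and Eif2s3y, so this mean does not give them separately. By the study's methods, male and female mice were used. The cause of the difference from WT was not tested.

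**Figure D4:**
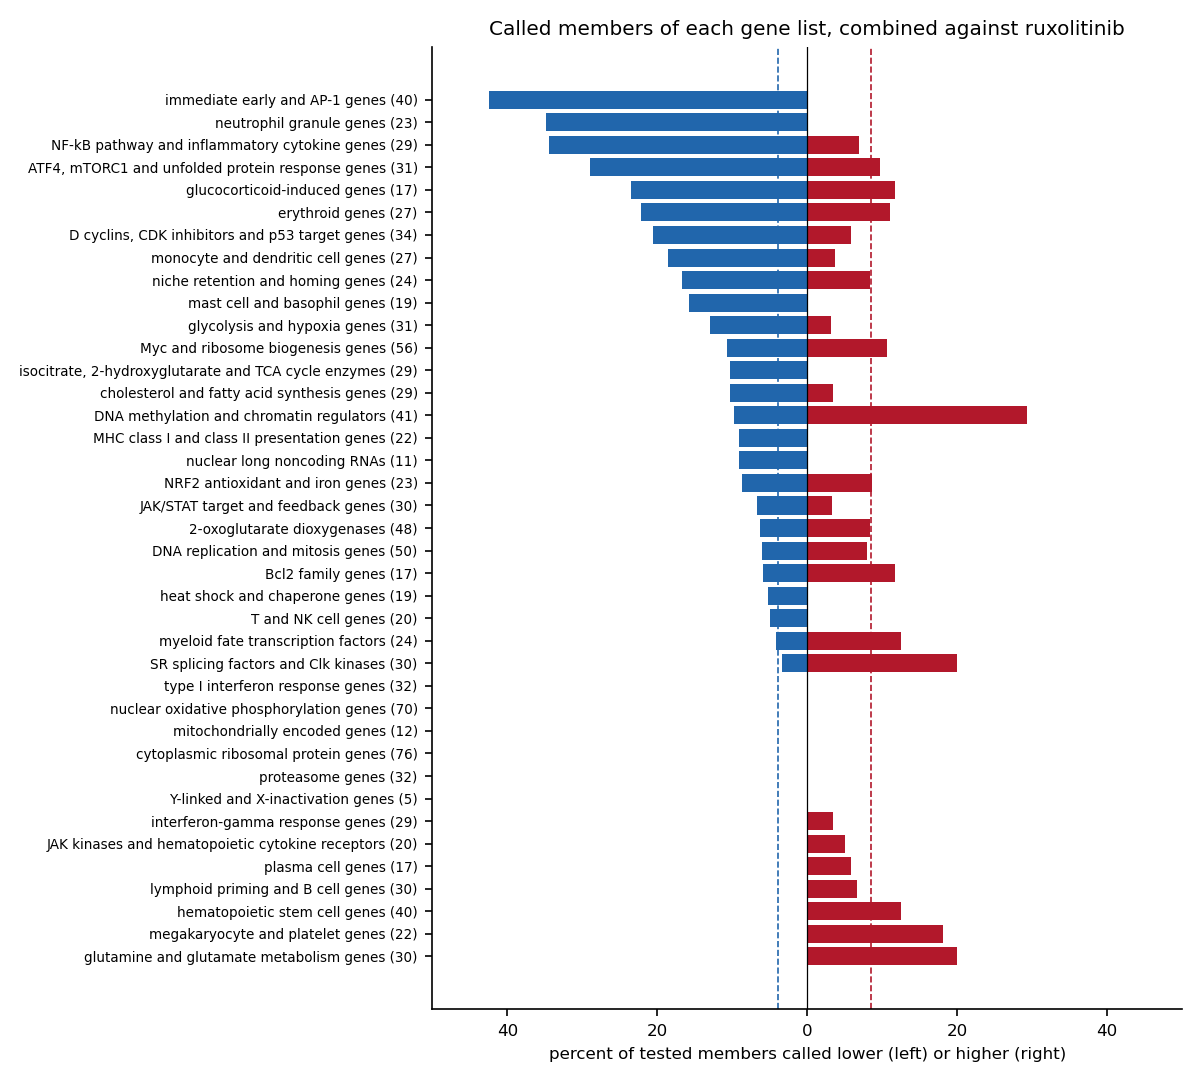
Percent of the tested members of each of 39 gene lists called lower (blue, left of 0) or higher (red, right of 0) in combined against ruxolitinib, with the number tested in parentheses and dashed lines at the shares over all genes tested, 3.94% lower and 8.5% higher. The immediate early list has the most lower genes for its size (17 of 40) and the chromatin list the most higher genes (12 of 41), and 6 lists have no called member. The lists were chosen with earlier results of these data known, so their order may follow in part from that choice.

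The same drug was given without ruxolitinib in libraries that share none with the comparison above, and whose names all begin with A. AG221 against vehicle gave 176 genes, 84 higher and 92 lower (0.987% of those tested), with 4498 (25.2%) at an unadjusted p under 0.05. This count was unstable, at 0 without A8, A10, A1 or A4 (2642, 2995, 4550 and 3883 genes at an unadjusted p under 0.05), 27 without A3 and 4672 without A9. Both contrasts called 66 genes, which is 2.98% of the combined minus ruxolitinib genes and 37.5% of the AG221 minus vehicle genes. Of these, 44 changed in the same direction (27 higher, 17 lower) and 22 in opposite directions. Over the 2217 genes, 53.7% had the same sign in both contrasts, against 43.3% of all genes tested. The median log2 fold change of the 1515 higher genes in AG221 minus vehicle was 0.04 and that of the 702 lower genes -0.08.

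Genes that rose with AG221 in both settings included Fam91a1, a protein of vesicle trafficking, with log2 fold changes of 1.98 on ruxolitinib and 0.99 without it (adjusted p = 0.000427 and 0.0477). Its levels were 16.1, 17.2 and 16.1 CPM with ruxolitinib, 73.9, 70.6 and 50 CPM with both drugs, 18.2, 16.7 and 23.6 CPM with vehicle and 35.8, 42.7 and 37.6 CPM with AG221. Trim28 had log2 fold changes of 2.01 and 1.04, Tnks2, a poly-ADP-ribosyltransferase, of 1.51 and 0.86, Adipor2, the adiponectin receptor, of 1.31 and 0.72, N4bp1 of 1.25 and 0.85, and Sfpq, a splicing factor of paraspeckles, of 1.25 and 0.71. The ranges of the AG221 and vehicle libraries were apart for Trim28 (84.7, 120.0 and 72.8 against 40, 39.5 and 55.5 CPM) and for Adipor2 (25.6, 31.2 and 25.1 against 14.8, 18.3 and 16.8 CPM). All 6 genes passed the AG221 minus vehicle test narrowly, with adjusted p-values of 0.0458 to 0.0477. When the libraries of the 4 mutant groups were left out in turn, the count of 44 became 0 in each case except the omission of A9, which gave 270.

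Among the 22 genes with opposite directions were Mgl2, Hp, Dmkn and Prkcq. Mgl2 rose with AG221 alone, from 6.5, 5.26 and 2.49 to 25.7, 22.6 and 15.9 CPM, and fell with AG221 on ruxolitinib, from 23.1, 21.4 and 13.6 to 3.76, 7.81 and 5.09 CPM (log2 fold changes 2.17 and -1.8). Hp was at 99.6, 117 and 92 CPM with vehicle and 412, 262 and 281 CPM with AG221 (log2 fold changes 1.63 and -1.37). Dmkn, dermokine, went from 8.8, 10.4 and 7.62 to 43.2, 31.9 and 33.3 CPM without ruxolitinib and from 19.5, 12.3 and 17.3 to 4.33, 6.53 and 7.49 CPM with it (log2 fold changes 2.02 and -1.42). Prkcq, protein kinase C theta, went the other way, from 39.9, 49 and 42.4 to 21, 26 and 26.1 CPM without ruxolitinib and from 38.9, 36.5 and 37.3 to 67.1, 64.3 and 55.6 CPM with it (log2 fold changes -0.85 and 0.73).

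**Figure D5:**
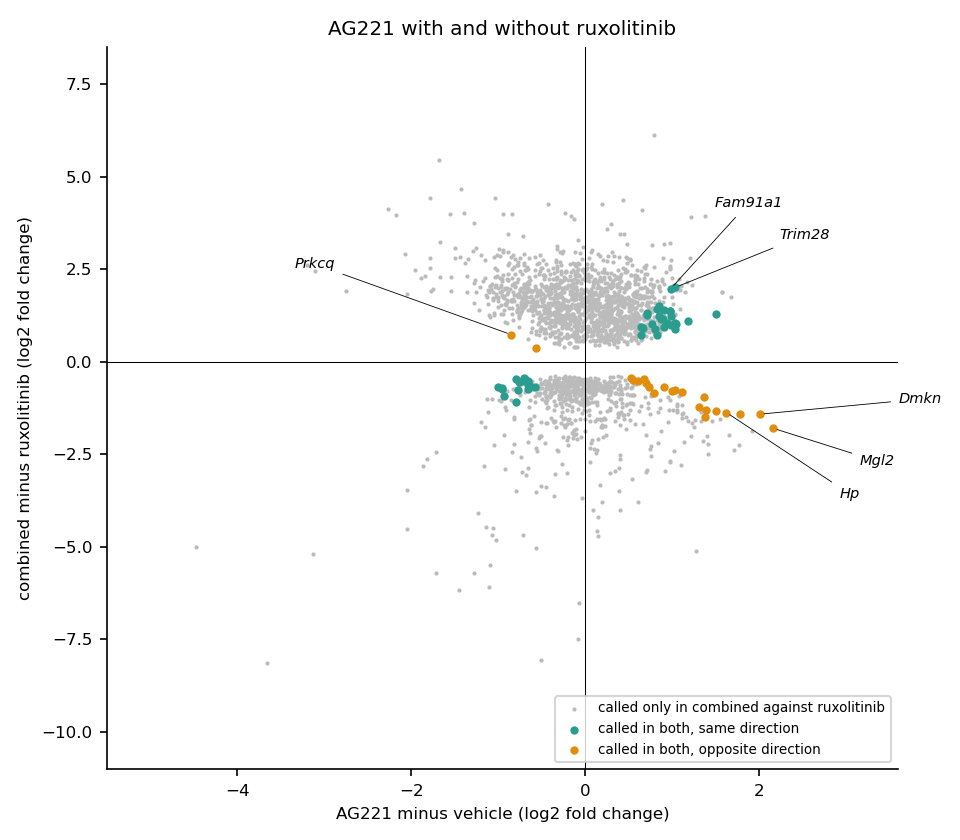
The 2217 genes called in combined minus ruxolitinib, by their log2 fold change with AG221 alone (AG221 minus vehicle, horizontal) and on ruxolitinib (combined minus ruxolitinib, vertical). Green points are the 44 genes called in both in the same direction and orange points the 22 called in opposite directions. On the horizontal axis the median of the 1515 higher genes is 0.04 and that of the 702 lower genes -0.08.

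The difference between adding AG221 with and without ruxolitinib was tested directly, with the change of letter on its combined side only, and was called for 1502 genes (8.42% of those tested), 999 with a more positive (5.6%) and 503 with a more negative change on ruxolitinib (2.82%). It contains the 6 libraries of combined minus ruxolitinib and is no independent measure for genes chosen by that contrast. For Atf3 the difference was -4.97 on the log2 scale (adjusted p = 0.00136) and for Klf6 -2.39 (adjusted p = 0.00142), and among higher genes Crebzf differed by 2.47 (adjusted p = 0.00788) and Cfl2, a cofilin, by 1.35 (adjusted p = 0.00893). Jak2, whose change was 0.37 without ruxolitinib, differed by 0.76 (adjusted p = 0.054), which missed the threshold. Upper quartile scaling turned the split of this test from 66.5% to 37.2% higher, and the count depended on single libraries, at 44 without B25, 61 without B24, 88 without A17, 218 without A16, 93 without A8, 96 without A10, 172 without A3, 103 without A4 and 6087 without A9.

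GC-rich genes moved with the groups. The median log2 CPM of tested genes over 60% GC, relative to the mean of all libraries, was 0.26, -0.67 and 0.10 in the ruxolitinib libraries A14, A16 and A17 and 0.66, 0.61 and 0.36 in the combined libraries, without overlap (exact two-sided permutation p = 0.1, n = 3 each), and reached -1.27 and -1.05 in the AG221 libraries A8 and A10. Such genes were 3.29% of those tested, 6.47% of the higher genes and 1.85% of the lower genes. With GC content offsets 2354 genes were called, of which 2050 were among the 2217, and of the 87 genes examined one by one 86 kept their direction and their side of the threshold, the exception being Ogdh, which lost its call. Without A16, 1317 genes were called, 847 higher and 470 lower, of which 1255 were among the 2217. The 10 genes with the most counts held 2.96% ± 0.181 (SD, n = 3) of counts in the combined and 3.54% ± 0.195 (SD, n = 3) in the ruxolitinib libraries, with no overlap (exact two-sided permutation p = 0.1, the smallest that 3 against 3 allows), and the mitochondrial share was 1% ± 0.1 and 0.949% ± 0.0984 (exact permutation p = 0.5, n = 3 each).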

How the data were processed

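RNA of sorted CD45.2+ LSK cells was amplified and made into libraries with SMARTer chemistry. The authors aligned paired-end reads to mm10 (GRCm38) with STAR 2.5.1a, which the submitters' processing notes list with DESeq2 1.6.3, and deposited raw counts per Ensembl gene from STAR, which were used here, and a DESeq2-normalized table, which was not used. The Ensembl release and the strand column taken are not given in the sources used here. Symbols, positions and exon GC content came from GENCODE M21 on GRCm38 and matched 44585 of 45232 gene IDs, and promoters came from RefSeq on GRCm38.p6.

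Genes were filtered by filterByExpr on the 5 groups, scaled by TMM and fitted over all 15 libraries without covariates in edgeR 4.0.16 (R 4.3.3, limma 3.58.1), with the quasi-likelihood test and Benjamini-Hochberg adjusted p under 0.05 over the 17834 genes tested. Called, higher, lower, rose and fell refer to this test. Contrasts were combined minus ruxolitinib, AG221 minus vehicle, ruxolitinib minus vehicle and the difference of the first pair. CPM are counts per 1000000 on library totals scaled by TMM, fold changes are fitted, and the correlations used log2 CPM with a prior count of 2. Totals ran from 18836625 to 32174287, so that 3 counts, taken as the detection floor, were 0.0957 to 0.157 CPM; floors cover counting error only. No pair of libraries within a group agreed within sampling noise (chi-square per degree of freedom, genes of at least 20 counts). The model was also run on simulated counts with known changes in the combined group. Those counts held no shift by GC content or library letter, so that run does not bear on either. Library features were compared by an exact two-sided permutation test.

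The members and the 39 gene lists were chosen with earlier results of these data known, so that lists are described by counts and medians without a test. Some genes belong to several lists and are counted in each, so that the lists are not independent of each other. Named genes were the 10 protein-coding genes of smallest p per direction without overlap, up to 4 called genes per direction and list (or 2 where none was called), 6 genes called in both AG221 contrasts in the same direction, 3 per direction for the difference, Jak1, Jak2, Idh2 and cell type markers. DESeq2 1.42.0, other scalings, filters, thresholds, GC offsets, gene exclusions and the omission of each library were alternatives.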

Additional observations from a re-analysis of the deposited data

Results flagged for a closer look

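For 60 of the 87 genes examined one by one, the change with AG221 differed between recipients given ruxolitinib and recipients not given it, by edgeR's quasi-likelihood test of the difference itself (adjusted p under 0.05). Most of the 87 were chosen by their result in combined minus ruxolitinib, which the difference contains, so that this count follows in part from the choice. Over all genes tested 8.42% were called. Values are the log2 fold change of combined minus ruxolitinib less that of AG221 minus vehicle. Among immediate early and inflammatory genes the difference was -4.97 for Atf3, -4.46 for Ptgs2, -3.79 for Fos, -3.61 for Fosb, -2.94 for Zfp36, -2.39 for Klf6, -2.26 for Btg2, -1.44 for Ier3, -1.54 for Sgk1, -2.07 for Cd69, -6.46 for Cxcl2, -3.29 for Tnf, -3.28 for Ccl4, -1.84 for Osm and -1.86 for Rgs1. Among myeloid, mast cell and erythroid genes it was -2.17 for Mpo, -2.90 for Elane, -3.0 for Hp, -2.23 for Cebpe, -2.5 for Ms4a3, -1.53 for Hdc, -3.96 for Mgl2, -2.53 for Fcgr3, -3.30 for Cd14, -3.43 for Dmkn, -3.87 for Vcam1, -4.35 for Hbb-bs and -3.99 for Hba-a1. Both globin values rested on A16, without which they were -2.27 and -2.04 (adjusted p = 0.073 and 0.0943), and the value for Vcam1 was -5.02 without A3. Other genes with a more negative change on ruxolitinib were Plk2 (-3.42), Adhfe1 (-3.67), Pmaip1 (-2.21), Neat1 (-1.60), Hspa5 (-1.28) and Hyou1 (-1.15).

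A more positive change on ruxolitinib was seen for the stem cell, platelet and lineage genes Gp5 (4.33), Rap1b (2.45), Lmo2 (2.25), Rbpms (2.42), Tal1 (1.19), Itga6 (1.12), Cebpg (2.09) and Tcf12 (0.93), for the signaling genes Socs1 (4.58), Jak1 (1.79), Prkcq (1.58), Mark3 (1.17) and Fkbp5 (1.16), and for the chromatin and dioxygenase genes Kdm5b (1.87), Bmi1 (1.35), Aebp2 (1.16), Riox1 (2.26) and Alkbh5 (1.71). The same held for Crebzf (2.47), Cfl2 (1.35), Noc2l (2.63), Gclm (2.03), Glud1 (1.63), Cnot6 (1.07), Fam168b (1.05) and Srsf9 (2.21). Jak1 was among them although it was called in neither contrast alone. The calls depended on single libraries. Of the 60 genes, 22 were still called without B25, 26 without A17, 27 without B24 or A4, 28 without A8 or A10, 29 without A16, 31 without A3, 53 to 57 without A14, A1 or B26 and all 60 without A9, and none changed sign. The difference became 5.92 for Socs1 and -2.83 for Plk2 without A9, -1.61 for Pmaip1 without A14 and -3.54 for Elane without A3. The letter of the library names changes with the addition of AG221 to ruxolitinib and not with its use alone, so that this difference and the change of letter cannot be told apart.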

How the results depend on the processing

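The count for combined minus ruxolitinib, 2217, was within 1.5 times under every alternative setting except an adjusted p under 0.01 (995) and the omission of single libraries (1137 to 1899). AG221 minus vehicle, 176, went to 738 with upper quartile scaling, 2306 with DESeq2, 969 with a mean count of at least 50, 337 with GC offsets, 62 with a 2-fold minimum, 0 with an adjusted p under 0.01, 0 with only the libraries compared (2501 at an unadjusted p under 0.05), and 0 to 4672 as libraries were left out. The difference, 1502, went to 3124, 3632 and 2485 with upper quartile scaling, DESeq2 and a mean count of at least 50, to 167 with only the libraries compared, to 34 with an adjusted p under 0.01, and to 44 to 6087 as libraries were left out. Genes called in both contrasts in the same direction, 44, went to 149 with upper quartile scaling, 341 with DESeq2, 25 without a filter on low counts, 168 with a mean count of at least 50, 94 with GC offsets, 5 with a 2-fold minimum, 0 with an adjusted p under 0.01 or only the libraries compared, and 0 to 270 as libraries were left out. Fewer samples entered the fit with only the libraries compared and without single libraries. Counts moved both ways, and without A9 they rose to 4672 for AG221 minus vehicle and 6087 for the difference. The cause of these changes was not tested. Upper quartile scaling moved the median of all genes from 0.01 to -0.11 and the share of higher calls from 47.7% to 77.4% for AG221 minus vehicle (57.7% with RLE), and from 66.5% to 37.2% for the difference. Of the 87 genes examined one by one, none reversed. The most calls lost under 1 setting were 8, without B24, and among settings with all 15 libraries and all genes DESeq2 lost Hbb-bs and Hba-a1. No paired analysis was possible because the groups compared share no replicate numbers.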
